A study of Homo sapiens with 4 samples.

Results

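The regions described here are single shared pairs of H3K9ac: clusters that hold exactly 1 region of the RBBP4 shRNA library and 1 region of the control library, overlapping each other and with no further region within 1 kb. Cells of the established human glioblastoma line T98G, at passage 4, were transduced with lentivirus carrying an shRNA against RBBP4 (shRBBP4) or a control shRNA (shNT), and H3K9ac was profiled by chromatin immunoprecipitation followed by sequencing (ChIP-seq). With 1 H3K9ac library per shRNA there are no replicates, and no p-value is given. Intervals at 95% are exact and cover counting error only. The labels give neither the shRNA sequence nor the level of RBBP4 reached.

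The members were selected on measured values, namely the positions of the called regions. Regions of both lists were pooled and joined across gaps of up to 1 kb, which gave 18106 clusters. Of these, 1581 held exactly 1 shRBBP4 and 1 shNT region (8.73%), and in 1200 of the 1581 the regions overlapped by at least 1 bp. In 1054 of these 1200 the nearest further cluster, on either side, lay within 100 kb. These 1054 pairs are 5.82% of all clusters and 10.1% of the 10454 clusters with regions of both libraries. They hold 2.68% of the 39303 shRBBP4 regions and 3.93% of the 26828 shNT regions.

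H3K9ac is acetylation of lysine 9 on histone H3. It is placed by histone acetyltransferases, removed by histone deacetylases, and found mainly around active transcription start sites and at active enhancers. RBBP4 is a WD-repeat protein that binds histones and is a subunit of several chromatin complexes, among them the SIN3 and NuRD deacetylase complexes, Polycomb repressive complex PRC2 and the chromatin assembly factor CAF-1. At many active promoters the acetylated nucleosomes flank a nucleosome-depleted start site, and a peak caller may return several neighbouring regions there. A cluster with a single region per library gives the least ambiguous match between lists, because no choice has to be made about which region corresponds to which. Positions are on hg19 with starts counted from 1. No gene annotation of that build was used, so regions are named by position alone.

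The limits of the rule cut through a continuous range. The pair with the smallest overlap, 1 bp, lay on chromosome 17, with an shRBBP4 region from 40719538 to 40719840 and an shNT region from 40719840 to 40720091. The next, with 2 bp, lay on chromosome 10, from 74452496 to 74452966 in shRBBP4 and from 74452364 to 74452497 in shNT. Just outside stood a pair on chromosome 1, from 201618310 to 201618478 in shRBBP4 and from 201618186 to 201618308 in shNT, with a gap of 1 bp, and a pair on chromosome 3, from 10183829 to 10184148 in shRBBP4 and from 10184151 to 10184288 in shNT, with a gap of 2 bp. At the distance limit, the members farthest from a further cluster were on chromosome 7 (shRBBP4 region from 97501220 to 97501618, 99258 bp away) and chromosome 20 (shRBBP4 region from 42938570 to 42939756, 97592 bp away). The nearest pairs left out were on chromosome 3 (shRBBP4 region from 184530041 to 184530502, 100283 bp away) and chromosome 17 (shRBBP4 region from 4268245 to 4268528, 100311 bp away).

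Single shared pairs stood above their list in shRBBP4 and slightly below it in shNT, in median width and score. The median width was 275.5 bp in shRBBP4, against 213 bp in the whole list, and 201 bp in shNT, against 210 bp. The middle 50% of the widths ran from 172 to 421 bp in shRBBP4 and from 141 to 310 bp in shNT, and the widest members reached 1324 and 1113 bp in these libraries. Each list has a narrowest width at which many regions sit, 116 bp in shRBBP4 and 123 bp in shNT. Of the members, 54 were at this width in shRBBP4 (5.12%, 3.87 to 6.63) and 130 in shNT (12.3%, 10.4 to 14.5), against 10.03% of the whole shRBBP4 list and 12.4% of the whole shNT list. In 14 pairs both regions were at the narrowest width. Widths above 500 bp were found for 182 members in shRBBP4 (17.3%) and 90 in shNT (8.54%), against 14.5% and 13.3% of the whole lists.

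The score of a region is a value given by the authors on an unstated scale, and it was used only to rank regions within a list. The median percentile of the members was 57.1 in the shRBBP4 list, against 48.9 for the whole list, and 44.5 in the shNT list, against 51.2. Whole-list medians differ from 50 because of tied scores. Most of both lists, 28670 shRBBP4 and 23716 shNT regions, lies in larger clusters of both libraries, with 3 or more regions. Regions of those clusters had median percentiles of 57.1 in shRBBP4 and 51.2 in shNT, and median widths of 239 and 218 bp. Regions that stood alone, with no second region of either library within 1 kb, were weaker and narrower than the members in both libraries. Their median percentile was 28.4 for 4517 shRBBP4 regions and 24.8 for 1140 shNT regions, and their median width was 155 and 147 bp. The 381 clusters with 1 region of each library that did not overlap were similar to lone regions, with median percentiles of 28.4 in shRBBP4 and 29.4 in shNT. Part of this order follows from the rule, since a wide region overlaps another more easily and width goes with score. Among the members the Spearman correlation of width with percentile was 0.47 in shRBBP4 and 0.42 in shNT, over 1054 regions each.

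The shRBBP4 region was usually the wider of the pair. It was wider in 679 pairs (64.4%, 61.4 to 67.3), narrower in 371 and of equal width in 4. The median ratio of widths was 1.19-fold, a log2 ratio of 0.25 (0.18 to 0.32), and the median difference was 42 bp. The direction is not particular to single pairs. Of all 23084 overlapping pairs of 1 shRBBP4 and 1 shNT region in the 2 lists, 61.2% were wider in shRBBP4, with a median log2 ratio of 0.26. A further set, chosen after the data were seen, was the 11809 overlapping pairs in larger clusters in which neither region touched a second one of the other library. Of these, 61.1% were wider in shRBBP4, with a median log2 ratio of 0.15 (0.14 to 0.17).

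**Figure D1:**
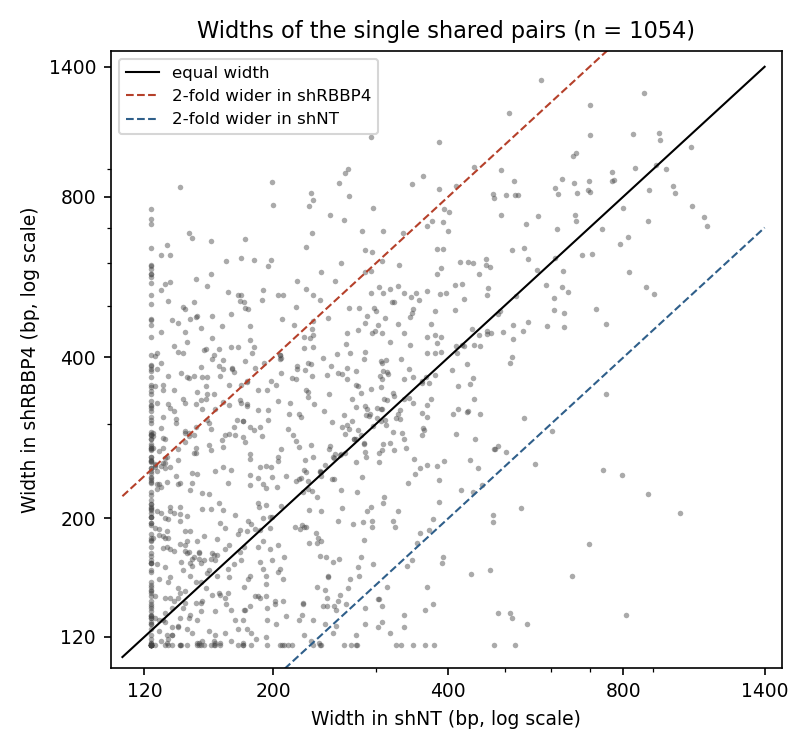
Width of the shRBBP4 region against width of the shNT region for the 1054 single shared pairs, in bp on log axes; each point is 1 pair, the solid line marks equal width and the dashed lines a 2-fold difference. Points spread on both sides of equality, 220 lie above the upper dashed line and 55 below the lower one, and the points stacked at the edges are regions at the narrowest width of their list.

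A difference of 2-fold or more was seen in 275 pairs, most often with the wider region in shRBBP4. The shRBBP4 region was at least 2-fold wider in 220 pairs (20.9%, 18.5 to 23.5), against 27.0% of all overlapping pairs. It was at least 2-fold narrower in 55 pairs (5.22%, 3.95 to 6.74), against 12.0% of all overlapping pairs. In that background a region can enter more than 1 pair, when it overlaps several regions of the other library. Among the pairs without a second partner in larger clusters, the shares were 15.4% wider (14.8 to 16.1) and 4.74% narrower (4.37 to 5.14). The share of single pairs at least 2-fold wider in shRBBP4 therefore lay below all overlapping pairs and above these. The widths of the libraries went together only in part, with a Spearman correlation of 0.39 over the 1054 pairs. It was 0.52 over the 11809 pairs in larger clusters, 0.47 over the 146 single pairs left out for their distance and 0.27 over all overlapping pairs. The points of each correlation share the same 2 libraries.

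The largest width ratios in favour of shRBBP4 came from regions that ran on to 1 side of a short shNT region. On chromosome 5 the shRBBP4 region, from 133394863 to 133395622, spanned 760 bp, and the shNT region, from 133394895 to 133395017, spanned 123 bp, a ratio of 6.18. The left edges differed by 32 bp, while the right edge lay 605 bp farther out in shRBBP4. On chromosome 1 an shRBBP4 region of 1115 bp, from 78956901 to 78958015, covered an shNT region of 183 bp, from 78956952 to 78957134. These regions had similar percentiles in their lists, 59.7 in shRBBP4 and 56.2 in shNT, in spite of a 6.09-fold difference in width. The others lay on chromosome 22, with 834 bp in shRBBP4 (from 51195402 to 51196235) and 138 bp in shNT, and on chromosome 11, with 728 bp in shRBBP4 (from 117050009 to 117050736) and 123 bp in shNT. On chromosome 11 the extension ran to the left, by 571 bp, and on chromosome 22 to the right, by 706 bp.

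The opposite cases held a short shRBBP4 region inside a long shNT region, and 2 of the 4 largest lay on chromosome 7. There, 132 bp in shRBBP4, from 5086196 to 5086327, lay within 810 bp in shNT, from 5085567 to 5086376. The percentiles were 8.79 in shRBBP4 and 79.2 in shNT, so this pair was both narrower and lower in its list with shRBBP4. The second pair on chromosome 7 had 205 bp in shRBBP4, from 17030308 to 17030512, and 1001 bp in shNT, from 17029875 to 17030875. The other pairs were on chromosome 17, with 116 bp in shRBBP4 (from 1464735 to 1464850) and 520 bp in shNT, and on chromosome 13, with 127 bp in shRBBP4 (from 114146091 to 114146217) and 547 bp in shNT.

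**Figure D2:**
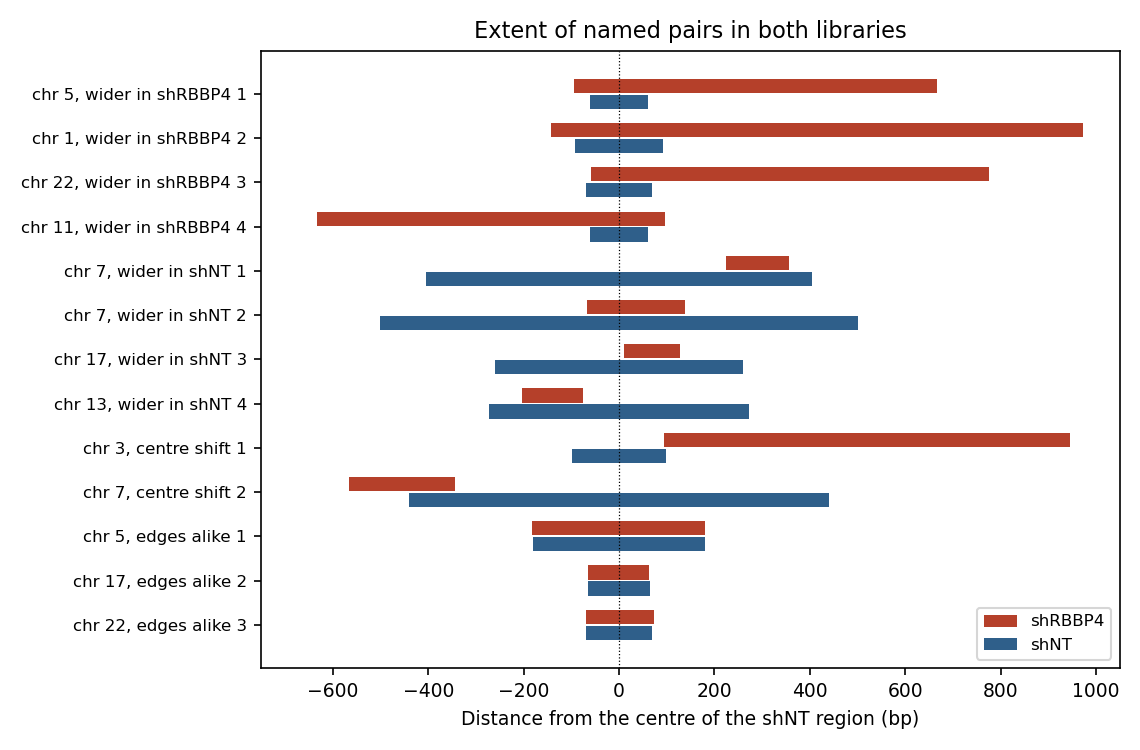
Extent of 13 named pairs in shRBBP4 (upper bar) and shNT (lower bar), as distance in bp from the centre of the shNT region; rows are the pairs with the largest width ratios, the largest centre shifts and the smallest edge shifts. In the 4 pairs with the largest ratios in favour of shRBBP4, its region extends mainly to 1 side of the shNT region, and the 3 pairs at the bottom coincide within 5 bp at both edges.

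The rule bounds the distance between the centres of a pair, since regions that overlap cannot be shifted by as much as their mean width. Within that bound, the absolute shift between the centres had a median of 64 bp (58.5 to 69.5), which is 23.7% of the mean width of the pair at the median. The 381 clusters of 1 region each without overlap, which the rule leaves out, had a median shift of 408.5 bp. Among the members it was at most 25 bp in 278 pairs (26.4%), at most 100 bp in 718 (68.1%) and at most 200 bp in 975 (92.5%). Shifts had no common side. The shRBBP4 centre lay to the left of the shNT centre in 552 pairs and to the right in 498, and the median signed shift was -3.5 bp with an interval from -8.5 to 1.5 bp. The median shift was larger than in the 11809 pairs of larger clusters, whose median was 47.5 bp (46.0 to 49.0), and smaller than over all overlapping pairs, at 98 bp. It showed no relation to the mean score percentile of the pair (Spearman correlation -0.04 over 1054 pairs) and a weak one to the summed width (0.34). As a share of width, the median shift was 34.9% in the 25% of pairs with the lowest mean percentile and 15.5% in the 25% with the highest, where the regions were wider.

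Most pairs were staggered rather than nested. In 605 pairs (57.4%, 54.4 to 60.4) each region extended beyond the other on 1 side, with the shRBBP4 region offset to the left in 314 and to the right in 291. The shNT region lay wholly within the shRBBP4 region in 309 pairs (29.3%), and the shRBBP4 region within the shNT region in 140 (13.3%). How often these arrangements occur over all overlapping pairs is not given here, so they are not read as a trait of single pairs. No pair had the same start and end in both libraries. The median overlap was 142 bp, which covered 63.1% of the shRBBP4 region and 86.5% of the shNT region at the median. An overlap of at least 50% of both regions was reached by 597 pairs (56.6%, 53.6 to 59.7). The share was 68.1% (67.3 to 69.0) of the pairs in larger clusters and 46.0% of all overlapping pairs. It was 56.8% (48.4 to 65.0) of the 146 single pairs left out for their distance. An overlap of at least 80% was reached by 199 members.

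**Figure D3:**
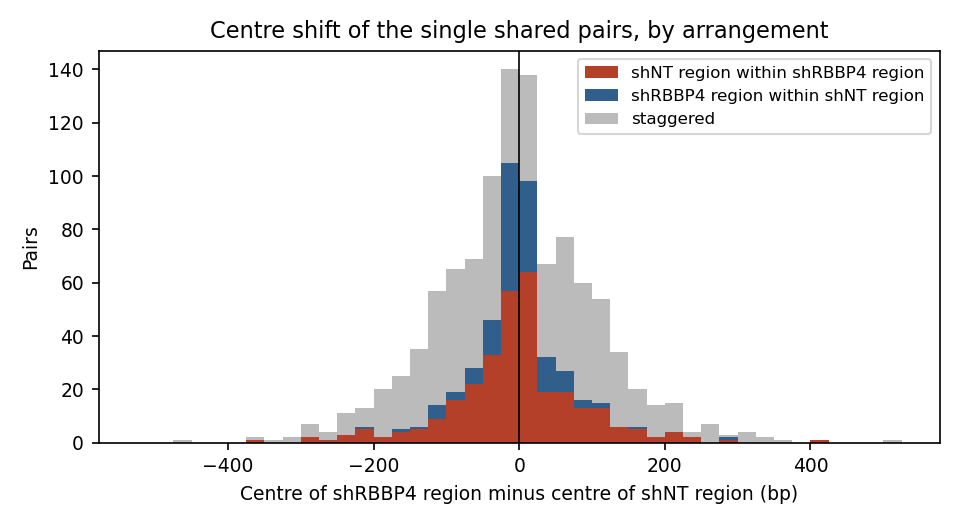
Number of single shared pairs by the signed distance between the centres, shRBBP4 minus shNT, in bins of 25 bp; colours give the arrangement of the regions. The distribution is centred near 0 with a median of -3.5 bp, and staggered pairs make up 259 of the 336 pairs shifted by more than 100 bp.

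The largest shift, 520.5 bp, was on chromosome 3, where an shRBBP4 region of 852 bp, from 99594055 to 99594906, and an shNT region of 199 bp, from 99593861 to 99594059, met over 5 bp only. On chromosome 7 an shRBBP4 region of 222 bp, from 139478563 to 139478784, lay at the left end of an shNT region of 881 bp, from 139478688 to 139479568, a shift of 454.5 bp. The third was the chromosome 1 pair with the 1115 bp shRBBP4 region, at 415 bp. At the other end of the range, a pair on chromosome 5 differed by 1 bp at its left edge and not at its right edge, with 362 bp in shRBBP4 (from 158521602 to 158521963) and 361 bp in shNT. Its percentiles were 96.3 in shRBBP4 and 96.5 in shNT. Pairs on chromosome 17 (128 bp in shRBBP4, from 56736730 to 56736857, and 130 bp in shNT) and on chromosome 22 (142 bp in shRBBP4, from 40440352 to 40440493, and 137 bp in shNT) had the same start in both libraries.

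The strongest members were chosen by the mean percentile of both lists, so their place near the top of both follows from that choice. The first by mean percentile, on chromosome 1, spanned 177 bp in shRBBP4, from 11968008 to 11968184, and 188 bp in shNT, from 11968000 to 11968187. Its percentiles were 99.8 in shRBBP4 and 99.7 in shNT, and its scores 62.6 and 46.7 on the scale of each list. The second, also on chromosome 1, was similarly narrow, with 175 bp in shRBBP4 (from 210547638 to 210547812) and 165 bp in shNT, at percentiles 99.4 and 97.0. Strong members were thus not always wide. The next pairs were broader, on chromosome 12 with 697 bp in shRBBP4 (from 54718979 to 54719675) and 615 bp in shNT, and on chromosome 5 with 733 bp in shRBBP4 (from 172386496 to 172387228) and 1100 bp in shNT. The fifth, on chromosome 16, spanned 319 bp in shRBBP4 (from 20877294 to 20877612) and 330 bp in shNT, at percentiles 96.0 and 99.3. Above percentile 90 there were 83 members in shRBBP4 (7.87%) and 62 in shNT (5.88%), and 38 pairs stood above it in both lists. Members made up 2.17% (1.73 to 2.68) of the 3832 shRBBP4 regions above percentile 90, against 2.68% of the whole list. In shNT they made up 2.30% (1.77 to 2.94) of 2699 such regions, against 3.93% of the whole list. Members were thus not enriched at the top of either list.

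Members stood higher in the shRBBP4 list than in the shNT list when ranked in the full lists. Pairs chosen again from lists of equal length hardly did. In the full lists the median difference in percentile was 6.75 points (5.02 to 9.84), and 655 pairs were higher in shRBBP4 (62.1%, 59.1 to 65.1), against 61.5% of all overlapping pairs. At least 25 points higher in shRBBP4 were 303 pairs (28.7%, 26.0 to 31.6), against 28.4% of all overlapping pairs. At least 25 points lower there were 115 pairs (10.9%, 9.09 to 13.0), against 13.8%. The shRBBP4 list is longer, so a region of equal standing can rank higher there, and such ranks do not show a change. With the shRBBP4 list limited to its 26828 highest-scoring regions and the members chosen again, the median difference was 0.68 points (-0.19 to 2.77). Ranked among the 1054 members alone, which are equally many in both libraries, 217 pairs stood at least 25 percent of ranks higher in shRBBP4 (20.6%) and 228 at least 25 lower (21.6%). Ranks within the pairs balance around 0 by construction, so these counts give only the spread.

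**Figure D4:**
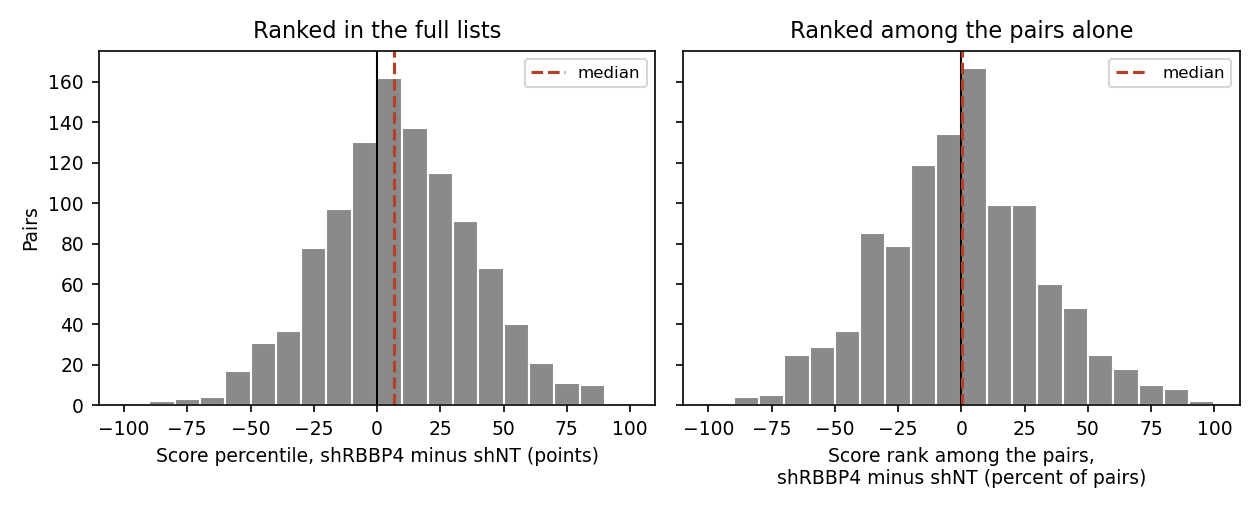
Number of single shared pairs by difference in score rank, shRBBP4 minus shNT, in bins of 10; left, percentiles in the full lists, and right, ranks among the 1054 pairs alone. The dashed median is at 6.75 points on the left and at 0.26 on the right, and both distributions reach beyond 75 points on either side.

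Score ranks of the libraries agreed loosely within pairs. The Spearman correlation of percentiles was 0.40 over the 1054 pairs and 0.42 over the 146 single pairs left out for their distance. It was 0.49 over the 11809 pairs in larger clusters and 0.37 over all overlapping pairs. Of the members, 292 pairs (27.7%) stood within 10 points. Score and width went together. Of the 679 pairs wider in shRBBP4, 492 also had the higher percentile there (72.5%, 68.9 to 75.8), and of the 371 narrower ones 163 did (43.9%, 38.8 to 49.2). Where the shNT region lay within the shRBBP4 region, the median percentile was 69.7 in shRBBP4 and 42.0 in shNT, and where the shRBBP4 region lay within the shNT region it was 47.8 and 59.5. In 4 equal groups of pairs by mean percentile, from lowest to highest, the median difference in the full lists was 4.30 points (-0.01 to 7.07), 15.9 points (5.15 to 22.4), 17.8 points (12.1 to 22.0) and 3.71 points (1.46 to 5.67). Ranked among the members alone, these medians were -0.95 (-4.74 to 0.71), 4.79 (-7.02 to 11.9), 6.21 (-0.85 to 12.0) and -0.66 (-1.80 to 0.52). Each interval of these member ranks runs from below to above equal rank. A mean percentile near either end limits the difference that is possible, so the smaller values in both end groups are in part built in. Of the 83 members above percentile 90 in shRBBP4, 7 stood below 50 in shNT, and of the 62 above 90 in shNT, 5 stood below 50 in shRBBP4.

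The 4 pairs that differed most in rank each way were not among the 4 with the largest width ratio each way. Over the 1054 pairs, log2 width ratio and percentile difference still went together in part, with a Spearman correlation of 0.33. The first in favour of shRBBP4, on chromosome 2 from 174900855 to 174901258, stood at percentile 89.6 in shRBBP4 with 404 bp, and its shNT region of 158 bp at percentile 1.01. The next lay on chromosome 10 from 104264123 to 104264327, with percentiles of 95.7 in shRBBP4 and 7.37 in shNT and widths of 205 and 135 bp. The third, on chromosome 15 from 23086683 to 23087472, stood at percentile 92.3 in shRBBP4 and 4.36 in shNT, with widths of 790 and 234 bp. The last, on chromosome 11 with an shRBBP4 region from 1329595 to 1330012, stood at 84.7 in shRBBP4 and at 0.103, near the bottom of the list, in shNT. Its widths were 418 bp in shRBBP4 and 185 bp in shNT. In favour of shNT, the first was on chromosome 2, with an shRBBP4 region from 133380786 to 133381018 at percentile 6.76 and an shNT region from 133380788 to 133381128 at percentile 96.1. These regions spanned 233 bp in shRBBP4 and 341 bp in shNT. The second was the pair on chromosome 7 at the distance limit, with percentiles of 3.41 in shRBBP4 and 83.9 in shNT although the shRBBP4 region was wider, 399 bp against 243 bp. The last were on chromosome 1, with shRBBP4 regions from 11791388 to 11791663 and from 85987497 to 85987671 at percentiles 0.265 and 0.860. The shNT regions of these pairs stood at 79.2 and 78.0, and their widths, 309 and 197 bp, differed little from the 276 and 175 bp in shRBBP4.

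The rule keeps the next 1 kb around a pair free and requires a further cluster within 100 kb. That distance was met by 87.8% of the overlapping single pairs, 87.5% of all clusters and 87.2% of larger clusters of both libraries. Nearness at this scale is thus not particular to single pairs. The gaps that follow are not set beside those of clusters at large. The median gap to the next cluster was 9549 bp, and in 289 pairs (27.4%) it was at most 2 kb. A further 248 had their next cluster within 2 to 10 kb, 351 within 10 to 50 kb and 166 within 50 to 100 kb. A cluster lay within 100 kb on both sides of 611 pairs. The next cluster held regions of both libraries for 638 pairs (60.5%, 57.5 to 63.5), shRBBP4 regions alone for 325 (30.8%, 28.1 to 33.7) and shNT regions alone for 91 (8.63%, 7.01 to 10.5). For all 15851 clusters with a neighbour within 100 kb, these shares were 56.1%, 36.8% and 7.09%. The first share of the pairs lay above that of clusters at large and the second below it by these intervals, which treat clusters as independent. The pairs are among the clusters at large, and the difference was not tested.

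Widths of the pairs had no clear order with distance to the next cluster. The median log2 width ratio was 0.29 (0.19 to 0.38) with a neighbour at 1 to 2 kb, 0.38 (0.19 to 0.48) at 2 to 10 kb, 0.15 (0.09 to 0.27) at 10 to 50 kb and 0.26 (0.08 to 0.45) at 50 to 100 kb, with overlapping intervals. Over all members it was 0.25 (0.18 to 0.32), against 0.13 (-0.03 to 0.25) in the 146 single pairs more than 100 kb from any cluster, whose median widths were 280 bp in shRBBP4 and 234.5 bp in shNT. Of the members, 64.4% were wider in shRBBP4 (61.4 to 67.3), against 54.8% of the remote pairs (46.4 to 63.0). The median percentile difference was 6.75 points (5.02 to 9.84) for the members and -0.34 points (-6.0 to 6.51) for the remote pairs. The percentile in the full lists was higher in shRBBP4 for 62.1% of the members (59.1 to 65.1) and 50% of the remote pairs (41.6 to 58.4). The intervals of this share do not overlap. Those of both width measures and of the median percentile difference do. The difference between members and remote pairs was not tested. By the kind of neighbour, pairs next to a cluster of shNT alone had the lowest percentile difference, with a median of -0.94 points (-7.90 to 5.50), against 11.2 (6.24 to 15.7) next to a cluster of shRBBP4 alone and 5.89 (3.66 to 10.5) next to one of both libraries. The first 2 of these intervals, from ranks in the full lists, do not overlap. Ranked among the members alone, the median difference was -9.77 (-17.3 to -0.33) next to shNT alone. It was 1.85 (-0.90 to 6.45) next to shRBBP4 alone, and these intervals overlap. Neighbouring clusters were called from the same libraries, and the difference itself was not tested.

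The width ratio of single pairs differed between chromosomes. The median log2 ratio was above 0 on 18 of 23 chromosomes, below 0 on 4 and 0 on chromosome X. The highest values were on chromosomes 14 (0.72, 0.34 to 1.06, 33 pairs), 22 (0.66, 0.19 to 1.21, 26 pairs), 12 (0.64, 0.18 to 0.85, 50 pairs) and 10 (0.63, 0.30 to 0.81, 33 pairs). The lowest were on chromosomes 13 (-0.37, -0.88 to 0.38, 16 pairs) and 7 (-0.11, -0.28 to 0.10, 65 pairs), with 8 and 16 at -0.01 each. On chromosome 7 the median width was 222 bp in shRBBP4 and 237 bp in shNT, while on chromosome 14 it was 381 and 180 bp. The shRBBP4 region was the wider in 27 of 65 pairs on chromosome 7 (41.5%, 29.4 to 54.4), 21 of 45 on chromosome 8 (46.7%, 31.7 to 62.1) and 36 of 72 on chromosome 16 (50%, 38.0 to 62.0), intervals that lie below the 64.4% of all members. It was the wider in 27 of 33 on chromosome 10 (81.8%, 64.5 to 93.0) and 22 of 26 on chromosome 22 (84.6%, 65.1 to 95.6), which lie above it. Among 23 intervals at 95%, some fall outside by counting error alone.

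Pairs elsewhere on the same chromosomes showed a similar order. The 11809 pairs of larger clusters share no region with the members, but come from the same libraries. Their median log2 width ratio was lowest on chromosome 8 (-0.06) and highest on chromosome 20 (0.35), with -0.05 on chromosome 7 and 0.33 on chromosome 14. Over the 23 chromosomes these medians and those of the members had a Spearman correlation of 0.80, and the medians of the percentile difference one of 0.78. By score, chromosome 7 was again low: 22 of 65 pairs had the higher rank among members in shRBBP4 (33.8%, 22.6 to 46.7). On chromosome X it was 6 of 23 (26.1%, 10.2 to 48.4). On chromosome 19 it was 47 of 70 (67.1%, 54.9 to 77.9), against 50.5% of all members. With pairs chosen again in lists of equal length, the median rank difference of chromosome 19 fell just below 0. Input libraries and read depth by chromosome were not analysed here.

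**Figure D5:**
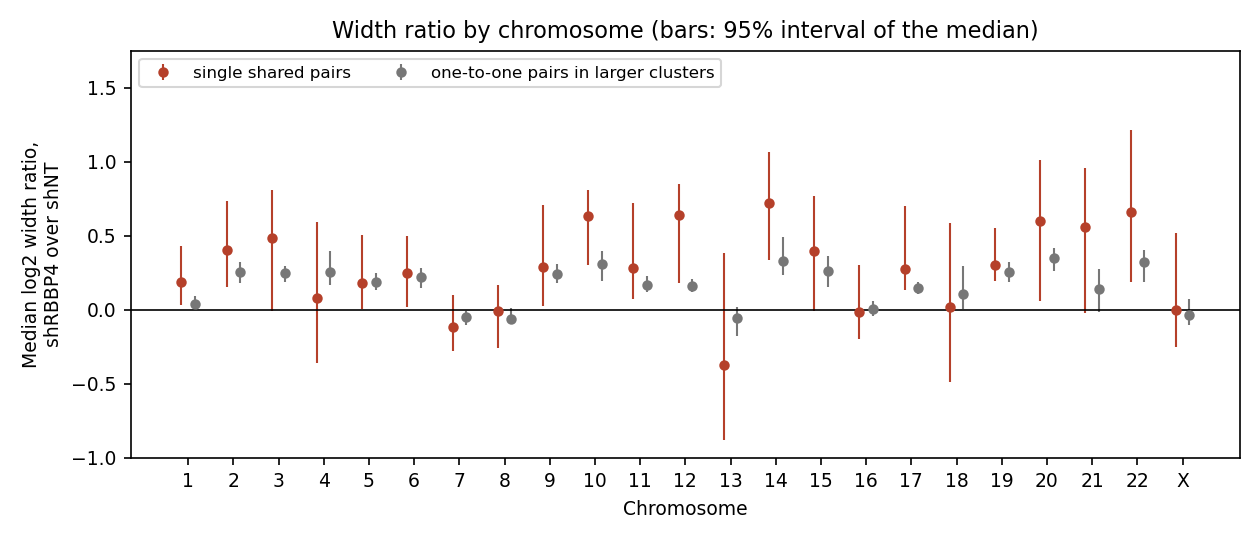
Median log2 ratio of widths, shRBBP4 over shNT, by chromosome, for the 1054 single shared pairs and for the 11809 pairs without a second partner in larger clusters; bars are exact 95% intervals of the median. The medians of chromosomes 7, 8 and 13 lie below 0 in both sets, but their intervals include 0 except on chromosome 7 in larger clusters. Chromosomes 10, 14, 20 and 22 are among the highest in both.

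Single pairs made up a similar share of the clusters on most chromosomes. The share was 9.15% on chromosome 16 (72 of 787 clusters, 7.23 to 11.4), 3.78% on chromosome 20 (27 of 715, 2.50 to 5.45) and 4.25% on chromosome 5 (47 of 1107, 3.14 to 5.61). These were the 3 of 23 chromosomes whose interval excluded the 5.82% of all clusters.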

How the data were processed

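Each of the 2 H3K9ac libraries has a deposited list of called regions with start, end and a score per region. The authors' header names macs2 and PE, per the file headers, while the submitters' processing notes name the builds hg19 and GRCh37 and the tools SICER, Picard, BWA and bcl2fastq 2.15.0, without roles. What called the regions, at which threshold and with which use of the inputs, is not given in the sources used here. Read depth is unknown. The inputs were not analysed here.

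Scores were turned into percentiles within each list, ties sharing their mean rank (2104 distinct scores in shRBBP4 and 1301 in shNT). Width is end minus start of the deposited interval. Named regions follow a rule on rank: the 5 highest by mean percentile, the 4 largest width ratios and percentile differences each way, the 3 largest centre shifts, the 3 smallest edge shifts among pairs above percentile 50 in both, and 2 pairs on each side of each limit. The members, the lists and this rule were chosen with earlier results of these data known. Shares have Clopper-Pearson intervals and medians exact order-statistic intervals, both treating pairs as independent. Cluster and overlap functions were tested on simulated data and against bedtools. Python 3.11.15, numpy 2.4.6, pandas 2.3.3 and scipy 1.17.1 were used.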

Additional observations from a re-analysis of the deposited data

How the results depend on the processing

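No paired analysis was possible because neither shRNA has a second H3K9ac library. The median width ratio stayed above equality under every alternative run. Joining across gaps of up to 500 bp gave 2064 pairs. Reciprocal overlap of at least 50% left 597 pairs, with a median log2 width ratio of 0.10, a median centre shift of 33.5 bp, a median percentile difference of 4.06 points and 23.5% of pairs at least 25 points higher. It left 0% past 2-fold wider and 0% past 2-fold narrower, since a ratio above 2 cannot meet it. In lists of equal length the median percentile difference was 0.68 points, with 21.0% at least 25 points higher and 18.05% lower, and the median member rank difference of chromosome 19 was -0.12, against 3.91. Ranks among the members gave 0.26, 20.6% and 21.6%. The higher-scoring 50% of each list gave 1206 pairs, only 311 of them members under the main rule. This largely different set had a shift of 72 bp, 18.1% past 2-fold wider and 13.2% at least 25 points lower. A fold of 1.5 gave 37.0% wider and 12.2% narrower. Causes were not tested beyond what each setting builds in. Of 29 named pairs, 12 to 29 remained members, fewest in the higher-scoring 50%. Leaving out pairs at a narrowest width, chosen after seeing the data, left 884 pairs with a median log2 width ratio of 0.22.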
